A study of Mus musculus with 8 samples.

Results

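Expression of genes that govern entry into the cell cycle was compared in mouse medulloblastoma, between tumour cells with and without expression of the stem cell factor Sox2. The 10 genes were chosen by name: the Myc genes Mycn, Myc and Mycl, the D cyclin genes Ccnd1, Ccnd2 and Ccnd3, the kinase genes Cdk4 and Cdk6, the retinoblastoma gene Rb1 and the transcription factor gene E2f1. All 10 were measured, out of 22180 genes. The tumours arose in Patched1+/- mice of CD1 background crossed with Sox2eGFP mice of B6 background, so that both fractions lacked 1 copy of the Hedgehog receptor gene and carried the reporter. Newborn mice of both fractions were irradiated with 3 Gy, and were over 70 days old when they showed signs of a tumour. Dissociated cells were depleted of CD45+ and Ter119+ blood cells and sorted by eGFP, and RNA of 3 tumours was pooled for each of 4 Sox2-positive and 4 Sox2-negative arrays. The p-values therefore measure the spread between pools, and nothing in the labels says whether equally numbered pools share tumours.

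Mitogens act on the G1 phase largely through 2 kinds of protein. Myc family factors bind DNA with Max and drive growth and cell cycle genes. D cyclins activate the kinases Cdk4 and Cdk6, which phosphorylate Rb1, and the loss of Rb1 from E2F factors lets genes of DNA synthesis be transcribed. In granule neuron progenitors of the cerebellum, the cells of origin of this tumour form, Hedgehog signalling is known to raise Mycn, Ccnd1 and Ccnd2.

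Promoter sequence was at hand for 6 of the 10 genes in RefSeq (assembly GRCm38.p6), as windows of 300 bases that end 50 bases after an annotated start of transcription. They were searched on both strands for the E2F letters TTTCGCGC or TTTGGCGC and for the E-box CACGTG, which Myc and Max bind. An E2F match was found in 0.813% and an E-box in 7.15% of 32851 promoters. The Mycn window held 3 E2F matches, between positions -183 and -161 relative to the start, of which the first and the second overlap, and no E-box. The Cdk4 window held 4 E-boxes and the Cdk6 window 1, and neither held an E2F match. Neither motif was found in the windows given for Mycl, Ccnd3 and E2f1. The E2f1 window lies at an annotated start whose bases read as coding sequence of the gene. It therefore says nothing of motifs at other E2f1 starts. The 250 bases before the start are shown for the genes with matches, since these include Mycn and Cdk6, the members that fell, with the matches in capitals. A match describes letters and not a bound site. Mycn lies on the minus strand (chr12:12941837-12942086), and Cdk4 (chr10:127063285-127063534) and Cdk6 (chr5:3343643-3343892) on the plus strand.
Mycn: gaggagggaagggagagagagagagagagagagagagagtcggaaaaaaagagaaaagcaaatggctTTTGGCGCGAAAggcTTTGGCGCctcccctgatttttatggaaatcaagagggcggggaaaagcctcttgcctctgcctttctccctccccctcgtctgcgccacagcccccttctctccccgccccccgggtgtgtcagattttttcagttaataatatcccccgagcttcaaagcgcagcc
Cdk4: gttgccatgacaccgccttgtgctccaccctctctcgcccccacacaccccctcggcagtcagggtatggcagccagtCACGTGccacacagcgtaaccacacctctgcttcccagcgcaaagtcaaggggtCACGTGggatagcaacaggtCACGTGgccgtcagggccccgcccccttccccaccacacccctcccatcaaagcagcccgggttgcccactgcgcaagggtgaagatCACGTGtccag
Cdk6: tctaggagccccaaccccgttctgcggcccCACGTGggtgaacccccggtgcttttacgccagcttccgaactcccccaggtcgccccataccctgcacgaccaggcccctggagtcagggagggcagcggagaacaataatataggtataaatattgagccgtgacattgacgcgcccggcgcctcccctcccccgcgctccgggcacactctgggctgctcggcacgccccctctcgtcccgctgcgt

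Values are log2 expression values on the authors' RMA scale, and a difference is Sox2-positive minus Sox2-negative. The comparison asks which of the 10 genes differ between the fractions. A gene was called at a limma p-value below 0.05 after Benjamini-Hochberg adjustment over all 22180 genes. Array medians ran from 5.83 to 5.88, and arrays correlated at 0.973 or more within fractions and at 0.942 to 0.968 between them. Sox2 itself was higher in the Sox2-positive arrays (5.94 ± 0.34 against 4.30 ± 0.29, SD, n = 4 each; limma adjusted p = 2.53e-05). The table holds no detection calls, so genes for olfactory and vomeronasal receptors, which serve in sensory neurons of the nose, gave a guide to dim values (median 4.95, upper quartile 5.80). The array of Sox2-negative pool 2 stood apart, with the highest Sox2-negative value for 8 of the 10 cell cycle genes, all but Ccnd3 and Rb1. Values without it are given beside the results that it moves most.

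Of the 10 genes, 4 were called, against 8.47% of all genes. With dim genes left out 4 were called, against 11.1% of the genes kept. The 10 were chosen with earlier results of these data known, so these shares are a description without a test. Ccnd1 and Ccnd3 rose in Sox2-positive cells (5.96% of all genes were called higher), and Mycn and Cdk6 fell (2.52% were called lower). The remaining 6 were not called. At an adjusted p under 0.1, Ccnd2 and E2f1 were added, which made 6 of 10 against 11.7% of all genes. The values of the fractions did not overlap for 5 of the 10 genes, against 13.7% of all genes. With the replicate number as a block, 4 of the 10 were called lower, Ccnd2 and E2f1 being added, while the share of all genes called lower went from 2.52% to 3.46%.

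**Figure D1:**
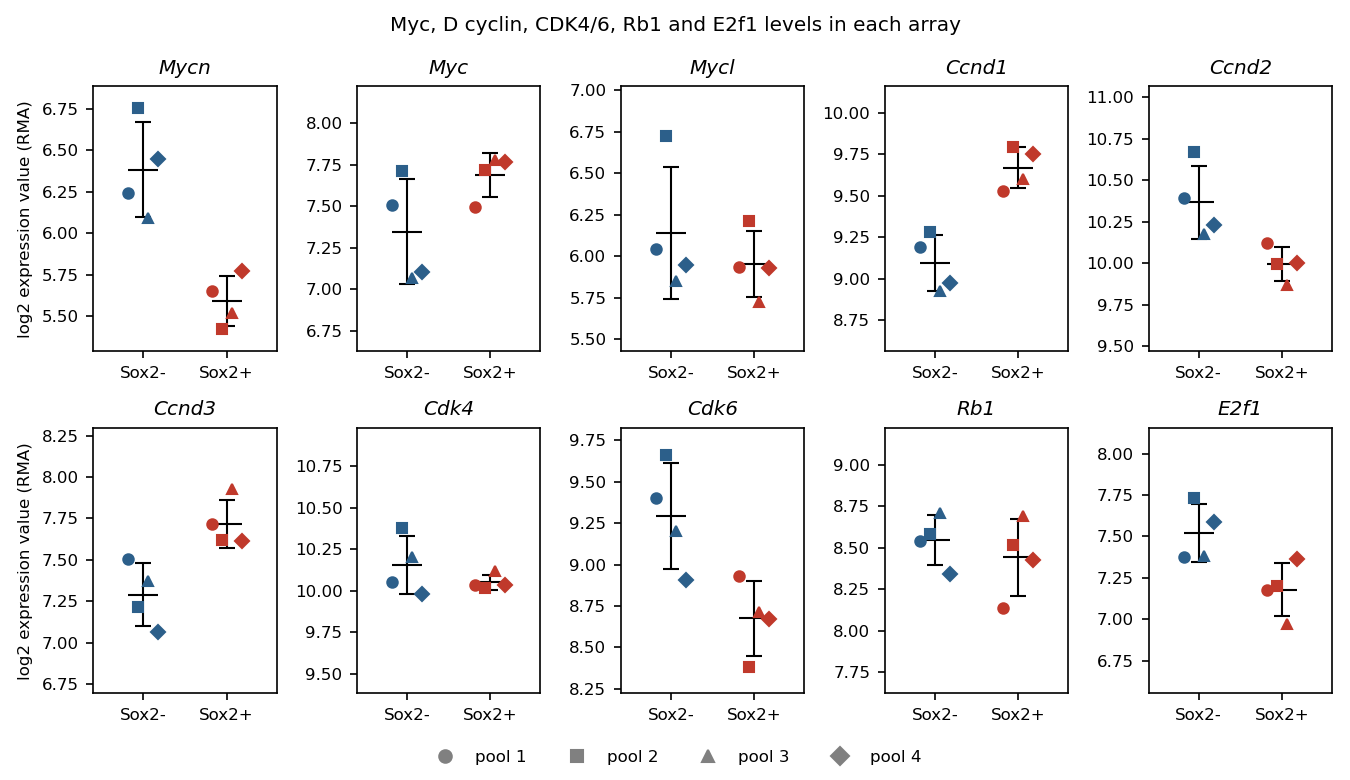
Level of each of the 10 genes in every array (log2 RMA value; blue, Sox2-negative; red, Sox2-positive; symbols mark the pool number; bars show the mean and SD of 4 arrays). Every panel spans the same log2 range around its own centre. The fractions do not overlap for Mycn, Ccnd1, Ccnd2, Ccnd3 and E2f1, and Sox2-negative pool 2 is the highest Sox2-negative array in 8 panels.

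Among the Myc genes, Mycn, the member that granule neuron progenitors use, was the 1 called. Mycn measured 5.65, 5.42, 5.52 and 5.77 in Sox2-positive pools 1 to 4 and 6.24, 6.75, 6.09 and 6.45 in Sox2-negative pools 1 to 4. Every Sox2-positive value lay below every Sox2-negative value. Mycn thus fell by 0.79 on the log2 scale (SE 0.13, 95% interval -1.08 to -0.50; limma adjusted p = 0.00171), to 57.8% of its Sox2-negative level. It was lower in 4 of 4 equally numbered pairs, and by 0.67 without Sox2-negative pool 2 (log2 difference -0.67, adjusted p = 0.00317). All 4 Sox2-positive values lay under 5.80, the upper quartile of the odour receptors, where RMA compresses differences.

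Myc, the broadly used member of the family, had the opposite sign. It measured 7.49, 7.72, 7.78 and 7.77 in Sox2-positive pools and 7.51, 7.71, 7.07 and 7.10 in Sox2-negative pools. The Sox2-negative values split into a higher pair, pools 1 and 2, and a lower pair, pools 3 and 4, and the higher pair overlapped with the Sox2-positive range. The log2 difference of 0.34 (95% interval 0.04 to 0.64) was not called (limma adjusted p = 0.177), but was called without Sox2-negative pool 2 (log2 difference 0.46, adjusted p = 0.0376). Between equally numbered pools it was -0.01, 0.00, 0.71 and 0.66.

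Mycl, the third member, was not called either. It measured 5.94, 6.21, 5.73 and 5.93 in Sox2-positive pools and 6.04, 6.73, 5.85 and 5.95 in Sox2-negative pools. Pool 2 was the highest of its fraction on both sides. The log2 difference was -0.19 (95% interval -0.55 to 0.17, limma adjusted p = 0.595), and 0.00493 without Sox2-negative pool 2.

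The 3 D cyclin genes did not move the same way. Ccnd1, the D cyclin most widely induced by mitogens, measured 9.53, 9.80, 9.60 and 9.75 in Sox2-positive pools and 9.19, 9.28, 8.93 and 8.97 in Sox2-negative pools. Every Sox2-positive value was above every Sox2-negative value, and pool 2 was the highest on both sides. Ccnd1 was 1.49-fold higher in Sox2-positive cells (log2 difference 0.58, SE 0.10, 95% interval 0.35 to 0.80; limma adjusted p = 0.00282), and was higher in 4 of 4 equally numbered pairs.

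Ccnd2, the D cyclin known to be used by dividing granule neuron progenitors, measured 10.12, 9.997, 9.87 and 10.001 in Sox2-positive pools. In Sox2-negative pools it measured 10.39, 10.67, 10.18 and 10.23. No value overlapped, although Sox2-positive pool 1 and Sox2-negative pool 3 were close. The log2 difference of -0.37 (SE 0.11, 95% interval -0.61 to -0.13) missed the threshold (limma adjusted p = 0.0601). It passed with the replicate block (adjusted p = 0.0339), with quantile normalization (0.0430) and without Sox2-negative pool 3 (0.0387), and was -0.27 without Sox2-negative pool 2 (0.120).

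Ccnd3, the D cyclin known for its part in maturing cells and lymphocytes, measured 7.71, 7.62, 7.92 and 7.62 in Sox2-positive pools and 7.50, 7.22, 7.37 and 7.07 in Sox2-negative pools. Sox2-positive pool 3 was the highest and Sox2-negative pool 4 the lowest of the 8. Ccnd3 was 1.35-fold higher in Sox2-positive cells (log2 difference 0.43, SE 0.11, 95% interval 0.19 to 0.67; limma adjusted p = 0.0290). Quantile normalization ended the call (adjusted p = 0.0520), as did leaving out pool 1 (0.0566) or 3 (0.0941) of the Sox2-positive arrays, or pool 2 (0.0659) or 4 (0.0839) of the Sox2-negative ones.

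Cdk4 and Cdk6 encode the partner kinases of the D cyclins. Cdk6 measured 8.93, 8.38, 8.72 and 8.67 in Sox2-positive pools and 9.40, 9.66, 9.20 and 8.91 in Sox2-negative pools. Only Sox2-positive pool 1 and Sox2-negative pool 4 overlapped. Cdk6 fell by 0.62 on the log2 scale (SE 0.15, 95% interval -0.95 to -0.29; limma adjusted p = 0.0210), to 65.1% of its Sox2-negative level, and was lower in 4 of 4 equally numbered pairs. Leaving out pool 2 (adjusted p = 0.0752) or 4 (0.0509) of the Sox2-positive arrays ended the call, as did leaving out pool 1 (0.0688) or 2 (0.0542) of the Sox2-negative ones.

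Cdk4, whose promoter holds the 4 E-boxes shown above, measured 10.03, 10.02, 10.12 and 10.04 in Sox2-positive pools. In Sox2-negative pools it measured 10.05, 10.38, 10.20 and 9.98. The Sox2-positive pools were close together, within the Sox2-negative range. The log2 difference was -0.10 (95% interval -0.31 to 0.11, limma adjusted p = 0.630), and -0.03 without Sox2-negative pool 2. The interval leaves out changes beyond 0.31 in either direction.

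Rb1, the pocket protein that holds E2F factors in check, was not called. It measured 8.14, 8.52, 8.69 and 8.43 in Sox2-positive pools and 8.54, 8.58, 8.71 and 8.35 in Sox2-negative pools. Sox2-positive pool 1 was the lowest, and the remaining values of both fractions were interleaved. The log2 difference was -0.10 (95% interval -0.36 to 0.16, limma adjusted p = 0.714), and 0.00138 without Sox2-positive pool 1. A second, much dimmer Rb1 probe set, under the median of the odour receptors in both fractions (4.51 ± 0.08 against 4.83 ± 0.11, SD, n = 4 each), differed by -0.32 (log2; limma adjusted p = 0.0498 over all named probe sets). The mean of both probe sets gave -0.21 (adjusted p = 0.206). A further 2 probe sets are shared by Rb1 and Lpar6, and had log2 differences of -0.21 and -0.18.

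E2f1, an activator of DNA synthesis genes that unphosphorylated Rb1 restrains, measured 7.18, 7.20, 6.97 and 7.36 in Sox2-positive pools. In Sox2-negative pools it measured 7.38, 7.73, 7.38 and 7.59. The fractions did not overlap, but the highest Sox2-positive value, of pool 4, nearly reached the lowest Sox2-negative ones. The log2 difference of -0.34 (SE 0.11, 95% interval -0.58 to -0.10) was not called (limma adjusted p = 0.0802). It was called with the replicate block (0.0387) and with quantile normalization (0.0410), and was -0.27 without Sox2-negative pool 2 (0.172).

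**Figure D2:**
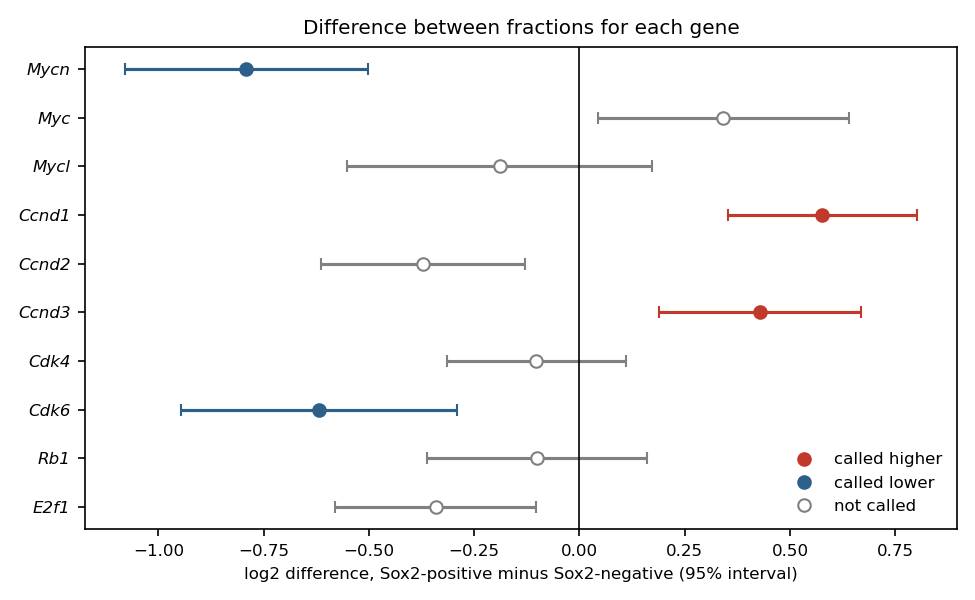
Log2 difference between the fractions for each of the 10 genes, with its 95% interval from the limma fit of 4 against 4 arrays. Filled points passed an adjusted p of 0.05 over all genes: Ccnd1 (0.58) and Ccnd3 (0.43) to the right of 0, Mycn (-0.79) and Cdk6 (-0.62) to the left. The intervals of Myc, Ccnd2 and E2f1 also exclude 0, but these genes did not pass the adjustment.

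Whether related genes differed by unequal amounts was asked by subtracting the log2 value of one from that of the other within each array. The levels of different probe sets are not comparable, so only the change of such a difference between fractions is read. Of 6 pairs compared, 5 changed with no overlap between the fractions. Each of these had the smallest p that 4 against 4 arrays can give (exact permutation test, two-sided, p = 0.0286; adjusted p = 0.0343 over the 6 pairs). That test moves arrays freely. With the replicate block, sign flips of the 4 array pairs gave an adjusted p of 0.125 for each of the 6 pairs. That includes the overlapping pair, Ccnd1 against Ccnd3. The value is the smallest possible there, so none passed. These p-values therefore do not rank the pairs. For Mycn against Myc, Ccnd1 against Ccnd2 and Ccnd2 against Ccnd3 the separation was fixed beforehand. Each of these D cyclin genes alone already separated the fractions, with Ccnd2 in the opposite direction. In Sox2-positive arrays Mycn was at most 5.77 and Myc at least 7.49. In Sox2-negative arrays Mycn was at least 6.09 and Myc at most 7.71, so their difference could not overlap. The p-values of all these pairs thus add nothing to the single-gene results, although the adjustment counts them.

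The widest shift was that of Mycn against Myc. Mycn minus Myc was -2.10 ± 0.22 in Sox2-positive and -0.97 ± 0.25 in Sox2-negative arrays (SD, n = 4 each), a change of -1.13. Mycn against Mycl changed by -0.60, from 0.24 ± 0.20 to -0.36 ± 0.29. Mycn was thus lower relative to both relatives.

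Ccnd1 minus Ccnd2 was -0.59, -0.20, -0.27 and -0.25 in Sox2-positive pools and -1.20, -1.39, -1.25 and -1.26 in Sox2-negative pools. The Sox2-negative arrays lay within a narrow range, and all Sox2-positive arrays were above it, a change of 0.95 in favour of Ccnd1. Ccnd2 minus Ccnd3 changed by -0.80, from 3.08 ± 0.29 to 2.28 ± 0.22. Ccnd1 and Ccnd3 differed from each other by 1.95 ± 0.24 and 1.80 ± 0.23, a change of 0.15 whose ranges overlapped (exact permutation p = 0.400, also after adjustment). This difference was larger in each Sox2-positive array than in the equally numbered Sox2-negative array. Cdk4 minus Cdk6 changed by 0.52, from 0.86 ± 0.21 to 1.38 ± 0.22, in favour of Cdk4.

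**Figure D3:**
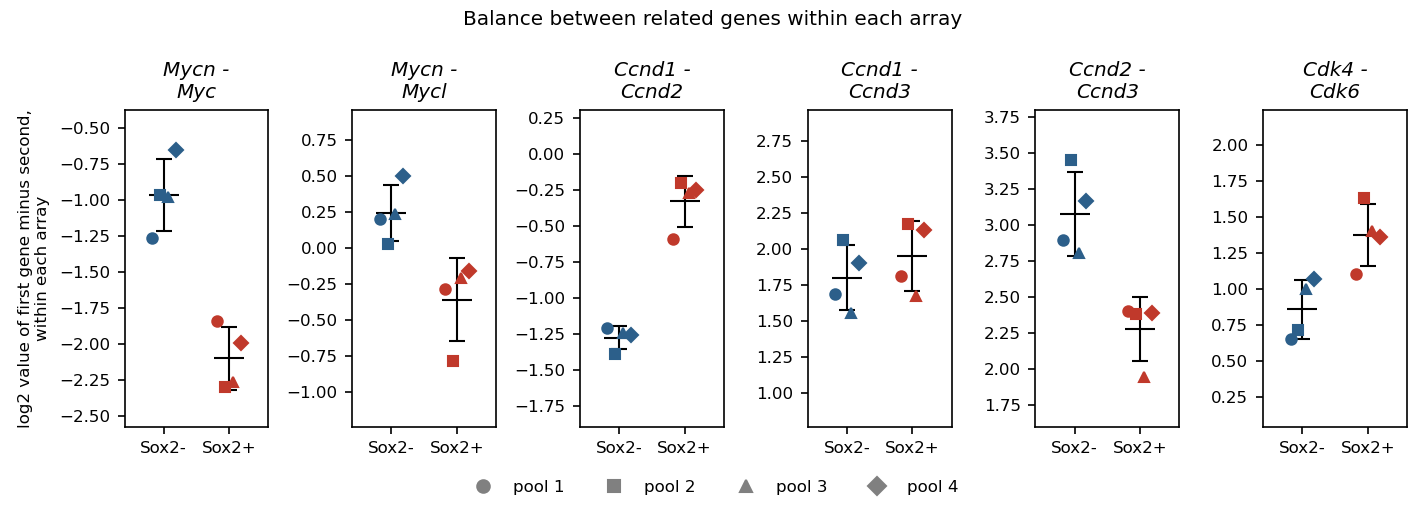
Log2 value of the first gene minus that of the second within each array (blue, Sox2-negative; red, Sox2-positive; symbols mark the pool number; bars show the mean and SD of 4 arrays). The fractions separate in 5 of 6 panels and overlap for Ccnd1 against Ccnd3.

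Around the axis, 8 of 102 measured genes on the 10 pathway lists were called (7.84%), a share near the 8.47% of all genes. With quantile normalization 13 were called (12.7%, against 9.60%). With 1 array left out the share was as low as 1.96% (without Sox2-positive pool 3, against 6.37%). It was as high as 9.80% (without Sox2-positive pool 1, against 8.27%). Of 10 partners and antagonists of Myc (Max, the Mxd proteins, Mnt, Mga and the Mlx group), 0 were called by limma, and 3 had an unadjusted p under 0.05. Max, the obligate partner, had a log2 difference of 0.00, and the largest was that of Mga, a Max-binding repressor (-0.31, adjusted p = 0.0755). Mga was called with quantile normalization (-0.39, adjusted p = 0.0309) and with array weights (0.0499). Of 15 Myc targets in ribosome and polyamine synthesis 0 were called (1 at an unadjusted p under 0.05), with a median log2 difference of -0.05, against -0.03 over all genes. The largest was that of the nucleolar gene Nop56 (-0.26, adjusted p = 0.127), which was called with quantile normalization (-0.35, adjusted p = 0.0273). Of 8 genes for turnover of Myc and D cyclin proteins 0 were called (1 unadjusted), and Aurka, a mitotic kinase that protects the Mycn protein from breakdown, had the largest difference (0.31, adjusted p = 0.127).

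Of 11 other pocket proteins, E2F and DP factors, 1 was higher and 1 lower, with a median of 0.05. E2f6, a repressor that does not bind pocket proteins, was 1.38-fold higher (6.15 ± 0.30 against 5.68 ± 0.15, SD, n = 4 each; limma adjusted p = 0.0498). Tfdp2, a DNA-binding partner of E2F factors, fell by 0.40 on the log2 scale (adjusted p = 0.0357). Of 15 alternatives, 10 ended the call of E2f6 (adjusted p up to 0.149), 6 of them by leaving out pool 2, 3 or 4 on the Sox2-positive side or pool 1, 2 or 4 on the Sox2-negative side. For Tfdp2, leaving out any array other than Sox2-positive pool 1 ended the call (adjusted p 0.0507 to 0.122). For the MuvB core, which joins pocket proteins to cell cycle promoters, 0 of 5 genes were called by limma and 0 had an unadjusted p under 0.05. Lin37 had the largest difference (-0.13, adjusted p = 0.496).

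Of 6 genes for cyclin E, its kinase Cdk2 and CDK activation, 1 was lower. This was Cdc25a, the phosphatase that frees Cdk2 for S phase entry, which fell by 0.41 on the log2 scale (6.84 ± 0.06 against 7.25 ± 0.15, SD, n = 4 each; limma adjusted p = 0.0149). Leaving out Sox2-positive pool 3 ended the call (0.0505). Of 7 CDK inhibitor genes 1 was higher, Cdkn2c, which blocks Cdk4 and Cdk6 (1.31-fold, adjusted p = 0.0414). Of 15 alternatives, 7 ended that call (adjusted p up to 0.129): quantile normalization, median centring, and leaving out pool 2, 3 or 4 among the Sox2-positive or pool 1 or 4 among the Sox2-negative arrays. With the replicate block 2 inhibitor genes were higher, Cdkn1a being added (limma adjusted p = 0.0155, against 0.0530 without the block). Cdkn1a also passed with dim genes left out (0.0433), without Sox2-positive pool 1 (0.0479) and without Sox2-negative pool 3 (0.0013). Leaving out any other array did not call it (adjusted p up to 0.160).

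At the downstream end, the count depended on the scaling. Of 19 E2F targets of the G1/S transition 0 were called by limma, and 4 had an unadjusted p under 0.05. The median log2 difference was -0.11 and 15 of the 19 were below 0, with differences from -0.41 to 0.18. Tyms, which makes thymidylate for DNA, was at -0.41 (adjusted p = 0.05002; 0.0242 with the replicate block). With quantile normalization 4 of the 19 were lower, Tyms and the helicase subunit genes Mcm2, Mcm6 and Mcm7 (log2 differences from -0.47 to -0.28), named after their values were seen. Tyms was also called with dim genes left out (0.0416), without Sox2-positive pool 4 (0.0341) and without Sox2-negative pool 3 (0.0201). The mean level of these 19 genes was 7.76 in Sox2-negative pool 2 and 7.46 to 7.50 in the other Sox2-negative arrays, against 7.42 to 7.48 in the Sox2-positive arrays. Of 11 genes of G2 and mitosis 0 were called as well (4 unadjusted), with a median of 0.20. The largest difference was that of Plk1, a kinase of mitotic entry (0.29, adjusted p = 0.127). The medians of the G1/S and mitotic lists lay on opposite sides of 0.

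Upstream, in the Hedgehog pathway, 4 of 10 genes fell and 0 rose, with a median of -0.26. They were the co-receptor gene Boc (log2 difference -0.65, limma adjusted p = 0.00433), the transcription factor genes Gli2 (-0.58, adjusted p = 0.0176) and Gli1 (-0.57, adjusted p = 0.0461) and the inhibitor gene Sufu (-0.55, adjusted p = 0.00749). Gli1 lost its call in 7 alternatives (adjusted p up to 0.147), 6 of them without 1 array (the same 6 as for E2f6). Gli2 lost it in 3, without Sox2-negative pool 1 and without pool 2 or 3 of the other fraction (up to 0.0648). The direction of a pathway cannot be read from this count, as the list holds activators and inhibitors.

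**Figure D4:**
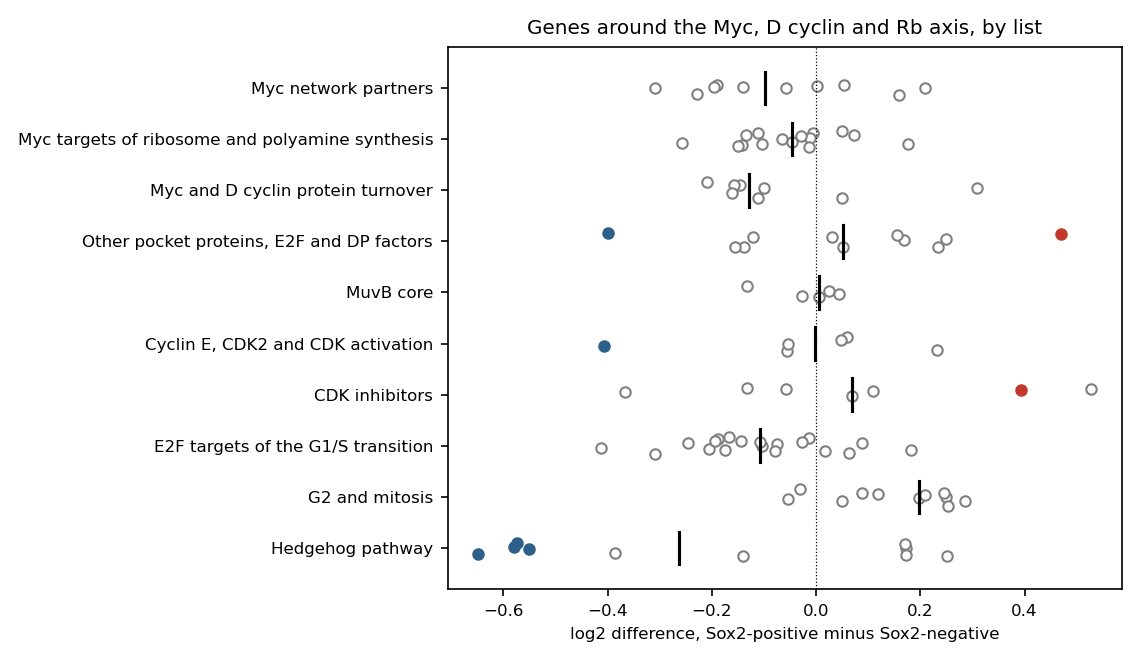
Log2 difference between the fractions for each measured gene of the 10 pathway lists (grey open points, not called; red, called higher; blue, called lower; black bar, median of the list). The called genes are 4 Hedgehog pathway genes, Tfdp2 and Cdc25a to the left of 0, and E2f6 and Cdkn2c to the right.

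Markers of several cell types also differed between the fractions. All 7 oligodendrocyte progenitor markers were higher in Sox2-positive cells, led by Ptprz1, Olig1 and Olig2 (log2 differences 4.76, 4.01 and 3.45), and their mean level ran from 9.09 to 9.65 in Sox2-positive and from 6.23 to 6.33 in Sox2-negative arrays. Of 8 astrocyte markers, 6 were higher and 0 lower, led by Slc1a3, Aqp4 and S100b (2.16, 1.39 and 1.24; mean level 6.99 to 7.69 against 6.25 to 6.38). All 7 granule neuron progenitor markers were lower, led by Zic2, Pax6 and Zic1 (-1.09, -0.90 and -0.85; mean level 7.96 to 8.17 against 8.74 to 9.07). So were 5 of 7 markers of differentiating neurons, led by Cntn2, Stmn2 and Rbfox3 (-1.49, -0.94 and -0.73; mean level 8.16 to 8.48 against 8.74 to 9.16). The part of these markers in the differences of the Myc, cyclin and kinase genes was not tested. In sorted bulk samples, fewer cells of a type and less RNA per cell cannot be told apart.

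Markers of cells that the depletion targets or leaves behind differed little. Their mean levels lay near or under 5.80, the upper quartile of the odour receptors, where RMA compresses differences. A difference in these cells could therefore be missed. Of 8 microglia and macrophage markers 0 were called by limma (2 at an unadjusted p under 0.05; the largest difference was -0.26, of Ctss), with mean levels of 5.61 to 5.68 in Sox2-positive and 5.58 to 5.83 in Sox2-negative arrays. Of 7 endothelial and pericyte markers 1 was higher, Rgs5 (log2 difference 0.37, adjusted p = 0.0174), with mean levels of 5.29 to 5.43 and 5.30 to 5.46. Leaving out Sox2-positive pool 4 ended the call of Rgs5 (0.0571), and the mean of its probe sets gave 0.21 (0.252).

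For each called member, the 3 genes whose 8 values followed it most closely were listed, as a description without a test. The 8 arrays form 2 groups, so the correlation of the deviations from the group means is given beside each. Mycn was followed most closely by Flrt2, an adhesion gene (r = 0.993; deviations 0.970), the Wnt receptor gene Fzd7 (0.986; 0.948) and the RNA exonuclease gene Dis3l2 (0.983; 0.938). Ccnd1 was followed by Rmdn2 (0.993; 0.963), the lipoprotein receptor gene Scarb1 (0.981; 0.886) and Plppr5 (0.981; 0.914). Ccnd3 was followed by the protease gene Sppl3 (0.973; 0.911), the triglyceride synthesis gene Dgat1 (0.970; 0.907) and the pseudokinase gene Trib2 (0.962; 0.892). Cdk6 was followed by the phosphodiesterase gene Pde3b (0.979; 0.963), the transcription factor gene Tead2 (0.977; 0.938) and the microRNA gene Mir551b (0.975; 0.935).

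Among the members themselves, deviations from the fraction means correlated from -0.81 to 0.88 over 45 pairs of genes, and 4 pairs were beyond 0.8 in size. They were Myc with Ccnd1 (0.882; 0.813 without Sox2-negative pool 2), Mycl with Ccnd2 (0.870; 0.543), Mycn with E2f1 (0.823; 0.703) and, with opposite sign, Ccnd3 with E2f1 (-0.805; -0.877). The values without that array were added after the data were seen. All rest on the same 8 arrays, or 7 without it, and are given as a description.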

How the data were processed

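RNA of 8 pools was measured on Affymetrix arrays. The authors deposited log2 values, 1 per probe set and array, summarized by RMA; the submitters' processing notes name Affymetrix Expression Console 1.2.0.20. Their range (2.51 to 13.6) gave the scale, and the build of the probe annotation is not given in the sources used here. RMA normalizes the arrays to each other, which removes a difference in total RNA, and compresses changes of dim genes. The number of arrays limits the precision.

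Of 41345 probe sets, 23521 carried 1 gene symbol in the platform annotation and were used, 1814 carried several, and 16010 were unnamed. The probe set with the highest mean over 8 arrays stood for each of 22180 genes. A linear model with group as its only term was fitted in limma 3.58.1 (R 4.3.3), two-sided, with no filter on dim genes. Permutation tests used SciPy 1.17.1. The fit was tested on simulated data with 200 changed genes, fewer than the 1879 called here. It recovered 52% of log2 changes of 0.5 and 95.6% of changes of 1. A gene that was not called may therefore still differ between the fractions.

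The genes and lists were chosen with earlier results of these data known. Beside the 10 members and Sox2, each list gave up to 3 called genes with the largest difference, or 1 where none was called, and each called member its 3 closest genes. Sufu, Max, Cdkn1a and 3 Mcm genes were named after their values were seen. Some list genes and protein sequences were not analysed here.

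Deviations from the group means correlated at 0.164, 0.114, 0.177 and 0.241 between equally numbered arrays. Unequally numbered arrays reached 0.161 (Sox2-positive 3 with Sox2-negative 2) and 0.137 (Sox2-positive 1 with Sox2-negative 4), above the 0.114 of pool 2. The numbers may therefore pair the arrays, but this is not established. Neither the main fit nor the main permutation test used them, and an alternative used them as a block. The labels themselves do not state a pairing. Alternatives were a replicate block, quantile normalization, median centring, dim genes left out, the mean of probe sets, array weights, a variance trend and leaving out each array. Quantile normalization was applied to the chosen probe sets, on top of the normalization already made by RMA.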

Additional observations from a re-analysis of the deposited data

Results flagged for a closer look

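Of 46 groups of 4 arrays checked, 4 held a value far from the other 3, and chance alone flags about 1 in 20 groups. Ccnd1 minus Ccnd2 was lowest in Sox2-positive pool 1 (-0.59), which still lay above every Sox2-negative array. Without that pool the change between fractions was 1.04 in place of 0.95. Ccnd2 minus Ccnd3 was lowest in Sox2-positive pool 3 (1.94), where Ccnd3 was at its highest and Ccnd2 at its lowest. The mean level of the oligodendrocyte progenitor markers was highest among Sox2-negative arrays in pool 3 (6.33), by a small margin. The mean level of the endothelial and pericyte markers was lowest among Sox2-negative arrays in pool 2 (5.30), the array with the highest values for 8 of the 10 genes.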

How the results depend on the processing

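Of the 10 genes, Mycn and Ccnd1 kept their call in all 15 alternatives (adjusted p at most 0.00797 and 0.0128), Cdk6 in 11 and Ccnd3 in 10. Signs held for 8 of the 10 genes in every alternative, the exceptions being Mycl and Rb1, neither of them called. With 1 array left out, Mycl ran from -0.29 to 0.00493 (without Sox2-negative pool 2) and Rb1 from -0.18 to 0.00138 (without Sox2-positive pool 1). Genes of the 10 called lower numbered 4 in place of 2 with the replicate block, with quantile normalization and at an adjusted p under 0.1, and 1 to 3 when 1 array was left out. Those called higher numbered 1 with quantile normalization and 1 to 2 when 1 array was left out. The block changed the calls of Ccnd2, E2f1, Tyms and Cdkn1a, and of no other gene named here. Over all genes, 847 in place of 558 were called lower with quantile normalization, and 309 to 591 when 1 array was left out (309 without Sox2-positive pool 2, 361 without Sox2-positive pool 4 and 357 without Sox2-negative pool 1). Higher genes made up 70.3% of calls, and 60.2% with quantile normalization. The cause was not tested.

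With the replicate block, sign flips of 4 pairs cannot give a p below 0.125. All 6 pairs of genes had this value, Ccnd1 minus Ccnd3 included. The changes of the 5 separated pairs were the same (-1.13, -0.60, 0.95, -0.80 and 0.52). With 1 array left out the adjusted p was 0.0686, again the smallest possible, and the changes ran from -1.23 to -1.03 (Mycn minus Myc), -0.67 to -0.46 (Mycn minus Mycl), 0.91 to 1.04 (Ccnd1 minus Ccnd2), -0.89 to -0.68 (Ccnd2 minus Ccnd3) and 0.43 to 0.61 (Cdk4 minus Cdk6). Neither setting can therefore pass the threshold, and neither bears on stability.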
